A study of Vitis vinifera with 23 samples.

Results

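Late green development of light-exposed grape berries was described from 6 of the 23 RNA-sequencing samples of the series, 3 taken at EL31 and 3 at EL33. EL31 is the stage of the green, pea-sized berry, and EL33 is the hard green berry shortly before véraison, the onset of ripening. The members were all samples labelled as exposed at these stages. The fruit was Vitis vinifera cv. Sauvignon blanc, a white-berried cultivar, from 1 vineyard in 1 season. On the exposed vines, leaves and lateral shoots had been taken away from the bunch zone on the south-east side of the canopy at the EL29 stage, before the first of these harvests, whereas the control vines kept theirs and their bunches were shaded. The 3 samples of a group came from separate panels of vines, and 3 control samples at each stage served for comparison. Berries were frozen whole and their seeds were removed afterwards, so each value is an average over skin, pulp and vascular tissue.

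Grape berries grow in a double-sigmoid curve. In the green phase the cells divide and expand, the chloroplasts of the young skin and pulp assimilate carbon, malic and tartaric acid accumulate, and tannins (polymers of flavan-3-ols) are deposited in the skin. Towards véraison this programme closes, and abscisic acid, sugar import and wall loosening mark the start of ripening. Light on the bunch is known to raise transcripts of photoprotective proteins and of flavonol synthesis in grape skin.

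Expression was measured as FPKM, the fragments of a transcript scaled by its length and by the mapped fragments of the library, and 18458 of the 29970 genes had a mean of at least 1 FPKM at EL31 or at EL33 in exposed berries and were tested. Sample values below are FPKM, in the order of replicates 1, 2 and 3. A change is EL33 minus EL31 in log2(FPKM + 0.1), given with its standard error, and understates the change of low genes. A gene was called where the adjusted p of limma, with the Benjamini-Hochberg method over all genes tested, was at most 0.05. Absolute depth is unknown from FPKM. Relative depth of the 6 exposed samples, read from the steps between low values, was 0.99 to 1.65 times the median of all samples, and 16974 to 17845 genes reached 1 FPKM in each of them.

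EL33 exposed replicate 2 stood apart and touches many results below. In 224 genes it lay at least 4-fold under both other EL33 exposed samples, against 29 to 134 such genes for any other sample of the series with 2 companions in its group. Replicate 1 of the same group deviated upwards. It lay at least 4-fold above both companions in 209 genes, against 26 to 151 in any other such sample. The relative depth of replicate 2, 1.0 times the median of all samples, was the lowest among the EL33 samples, which otherwise ranged from 1.05 to 2.57. The part of depth in its low values was not tested. None of the 224 genes is on the study's list of green-berry biomarkers, and 56 are on its list of ripening biomarkers. These lists hold 1934 and 1892 of the 18458 genes tested. In 223 of the 224 replicate 2 lay within or below the range of the EL33 control samples. In 117 of the 224 replicates 1 and 3 were both above every EL33 control sample. Relative to the EL33 control mean, the median log2 difference of these genes was 2.19 in replicate 1, -1.98 in replicate 2 and 1.89 in replicate 3. Since the genes were picked for being low in replicate 2, these medians are a description. Results that rest on that sample are given with and without it, and genes named only for its low value (EXPB4, 1 pectate lyase, GASA4, 1-aminocyclopropane-1-carboxylate oxidase 2, 1 thaumatin, the class IV chitinase and a hemoglobin) were chosen after their values were seen.

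Between EL31 and EL33, 2311 genes rose (12.5% of those tested) and 4070 fell (22.1%) in exposed berries. Falls of at least 4-fold were called for 1040 genes, and rises of that size for 286. Among the annotated groups, genes of the light reactions, of chlorophyll synthesis and carbon fixation and of the phenylpropanoid pathway had the highest shares of falls, and genes of wall loosening were among the steepest rises. Without EL33 exposed replicate 2, 2267 genes rose (12.3%) and 3752 fell (20.3%), 32.6% of those tested, against 34.6% with all samples. Of the calls made with all samples, 1952 rises and 3551 falls were also called without it. The split between rises and falls depended on the scaling of the samples: after quantile normalization the median of all genes moved from -0.085 to 0.099, and 4438 genes rose while 3142 fell, so small changes are read relative to that shift. Only 3678 of the tested genes carry a functional annotation, most of them from a table of biomarkers that the study picked on the control samples of these harvests, and 681 of them rose while 711 fell. The gene lists by keyword below hold annotated genes only, so their shares are to be read beside these counts as well.

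The light reactions of photosynthesis fell together. Of 37 genes of the photosystems, their antennae and electron transport, 27 were called lower at EL33 (73.0%) and 1 was called higher (2.7%). The shares over all genes tested were 22.1% and 12.5%. The median change of the list was -0.875, and its members called lower fell by 0.56 to 2.94. Of these 37 genes, 31 came from the biomarker table, so their direction is not independent evidence. The whole-berry values cannot tell fewer chloroplast-bearing cells from less RNA per cell.

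The antenna proteins bind chlorophyll and pass light energy to the reaction centres. LHCII type I CAB-1 (VIT_19s0014g00160), an antenna protein of photosystem II, stood at 331, 397 and 382 FPKM at EL31 and at 33.3, 76.5 and 43.6 FPKM at EL33. The groups did not overlap, replicate 2 kept the highest EL33 value, and the gene fell by 2.94 ± 0.34 (adjusted p = 2.48e-06). LHB1B1 (VIT_12s0028g00320), another photosystem II antenna protein, stood at 1509, 1419.5 and 1403 FPKM at EL31 and at 493, 761 and 568 FPKM at EL33, and fell by 1.27 ± 0.25 (adjusted p = 0.00058). Its control samples were lower at both stages, with 452 to 586 FPKM at EL31 and 156 to 312 FPKM at EL33. LHCA2 (VIT_01s0010g03620), of the photosystem I antenna, stood at 1424, 1429 and 1483 FPKM and then at 549, 794 and 637 FPKM, and fell by 1.15 ± 0.21 (adjusted p = 0.000396). In all of these antenna genes replicate 2 was the EL33 sample nearest to the EL31 values.

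Reaction centre and oxygen-evolving subunits were also among the falls. PsbO (VIT_18s0001g11710), which stabilises the manganese cluster that splits water, stood at 349, 274 and 329 FPKM at EL31 and at 81.8, 122 and 82.4 FPKM at EL33, and fell by 1.75 ± 0.39 (adjusted p = 0.00185). PsbQ (VIT_19s0014g05080), a further extrinsic subunit of that complex, fell by 0.97 ± 0.27 (adjusted p = 0.00855). The 23 kDa subunit PsbP (VIT_12s0028g01080) fell by 0.81 ± 0.17 (adjusted p = 0.00129), from 1667 to 2333 FPKM to 1001 to 1158 FPKM. Subunit II of the photosystem I reaction centre (VIT_05s0020g03180) fell by 0.86 ± 0.21 (adjusted p = 0.00345) and lost its call under quantile normalization. PsbZ (VIT_12s0059g01810), a small photosystem II subunit, fell by 0.95 ± 0.31 (adjusted p = 0.0246), but the call was lost when any of 3 exposed samples was left out (adjusted p up to 0.128). LHCA5 (VIT_18s0001g10550) was at 77.9, 75.4 and 75.5 FPKM and then at 36.9, 48.3 and 34.7 FPKM, and with a change of -0.95 ± 0.46 (adjusted p = 0.127) it was not called. The member that rose was PsbC (VIT_18s0001g09110), an inner antenna protein of photosystem II. It stood at 12.9, 9.52 and 10.3 FPKM and then at 19.01, 22.5 and 16.1 FPKM, and rose by 0.81 ± 0.18 (adjusted p = 0.00159).

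Chlorophyll synthesis and carbon fixation moved with the light reactions. Of 25 genes, 17 fell (68.0%) and 1 rose (4.0%), beside 22.1% and 12.5% of all genes tested. The median change of the 25 genes was -0.546. Under quantile normalization 13 fell, and in control berries 9 fell. Of the 25 genes, 23 came from the biomarker table, so their direction is not independent evidence. Rubisco activase (VIT_13s0019g02050), which frees the active site of the carbon-fixing enzyme, stood at 38.5, 37.3 and 36.3 FPKM at EL31 and at 10.7, 17.1 and 10.7 FPKM at EL33, and fell by 1.57 ± 0.41 (adjusted p = 0.00648). A carbonic anhydrase precursor (VIT_08s0007g04800), an enzyme that interconverts carbon dioxide and bicarbonate, fell by 1.16 ± 0.15 (adjusted p = 1e-05), from 260.4 to 302 FPKM to 117 to 137 FPKM. The chloroplast carbonic anhydrase VIT_14s0066g01210 went the other way, from 49.6, 56.4 and 65.1 FPKM to 80.99, 89.4 and 90.6 FPKM. Its rise of 0.62 ± 0.22 (adjusted p = 0.0369) lost the call when any of 5 exposed samples was left out (adjusted p up to 0.128).

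Photoprotective and carotenoid genes were divided. Of 14 tested, 3 rose (21.4%) and 5 fell (35.7%), beside 12.5% and 22.1% of all genes tested. Their median change of -0.042 became 0.086 under quantile normalization. Violaxanthin de-epoxidase (VIT_04s0043g01010), the enzyme of the xanthophyll cycle that makes zeaxanthin in strong light, stood at 60.3, 53.3 and 54.2 FPKM at EL31 and at 35.6, 35.1 and 34.2 FPKM at EL33. The EL33 samples agreed closely, and the gene fell by 0.67 ± 0.15 (adjusted p = 0.00209). In control berries it was lower at EL31, at 21.5, 21.6 and 27.1 FPKM, and changed by 0.0 ± 0.15 (adjusted p = 0.996). The difference between the exposed and the control change, -0.68 ± 0.22 (adjusted p = 0.672), did not pass the test.

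ELIP1 (VIT_05s0020g04110), an early light-induced protein of the thylakoid, was among the most abundant transcripts of the group at 763, 663 and 709.7 FPKM at EL31 and 979, 1173 and 1004 FPKM at EL33. All EL33 values lay above all EL31 values, yet the change of 0.56 ± 0.25 (adjusted p = 0.0906) was not called. PsbS (VIT_18s0001g02740), the sensor of thylakoid acidity in heat dissipation, was at 1123, 744 and 808 FPKM and then at 729.9, 744 and 559 FPKM, and its change of -0.38 ± 0.22 (adjusted p = 0.196) was not called either. Both stood higher than in control berries at each stage, where ELIP1 reached at most 318 FPKM and PsbS at most 493 FPKM. An FtsH protease (VIT_14s0108g00590), of a family that clears damaged photosystem II proteins, was at 1.73, 2.61 and 2.64 FPKM at EL31 and at 6.45, 14.5 and 5.30 FPKM at EL33, with a change of 1.75 ± 0.71 (adjusted p = 0.067).

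In carotenoid synthesis, lycopene beta cyclase (VIT_06s0080g00810) fell by 0.91 ± 0.12 (adjusted p = 1.03e-05), from 72.2, 55.2 and 59.9 FPKM to 31.7, 34.004 and 33.3 FPKM. Phytoene synthase (VIT_04s0079g00680), the entry enzyme, fell by 0.76 ± 0.17 (adjusted p = 0.00217). Zeta-carotene desaturase ZDS1 (VIT_14s0030g01740) rose, from 53.9, 49.9 and 52.2 FPKM to 107, 59.1 and 108 FPKM, a change of 0.76 ± 0.19 (adjusted p = 0.0041), with replicate 2 just above the EL31 values. Tocopherol O-methyltransferase (VIT_16s0039g01410), which makes the antioxidant vitamin E forms of the plastid, rose by 1.76 ± 0.16 (adjusted p = 2.02e-07), from 19.5, 19.2 and 24.01 FPKM to 56.6, 94.95 and 65.2 FPKM.

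**Figure D1:**
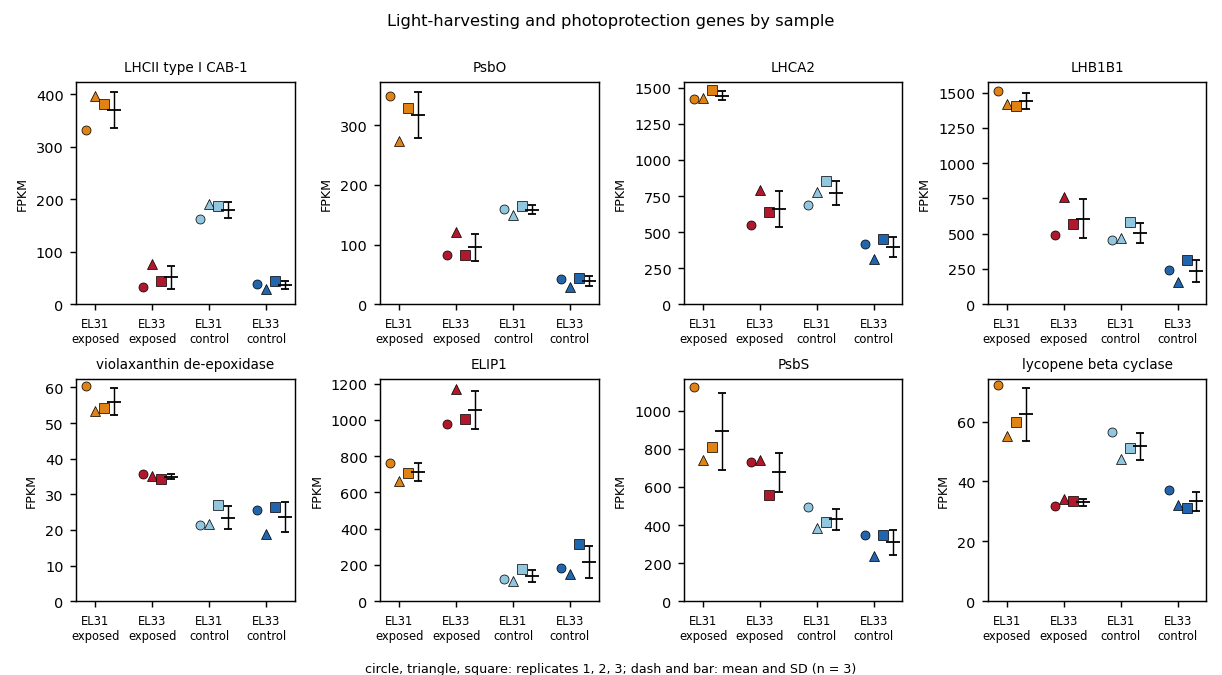
Expression of 8 light-harvesting and photoprotection genes in exposed and control berries at EL31 and EL33. The y axis of each panel is FPKM from 0. Symbols are replicates 1, 2 and 3, and the dash and bar are the mean and SD (n = 3). In exposed berries the antenna genes and PsbO fell without overlap, violaxanthin de-epoxidase fell to between 34.2 and 35.6 FPKM, and ELIP1 and PsbS were not called.

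Phenylpropanoid genes showed some of the steepest falls. Of 29 genes of the pathway's entry and of lignin and stilbene synthesis, 18 fell (62.1%) and 2 rose (6.9%). The shares over all genes tested were 22.1% and 12.5%. The median change of the 29 genes was -0.824. Phenylalanine ammonia-lyase (PAL) channels phenylalanine into the pathway. PAL2 (VIT_13s0019g04460) stood at 46.6, 47.5 and 48.3 FPKM at EL31 and at 4.39, 4.63 and 5.40 FPKM at EL33, and fell by 3.28 ± 0.18 (adjusted p = 4.06e-10). The PAL gene VIT_06s0004g02620 fell by 2.48 ± 0.22 (adjusted p = 1.14e-07), and VIT_08s0040g01710 fell by 3.63 ± 0.41 (adjusted p = 2.13e-06). PAL genes are close copies, so how fragments were shared among them is uncertain. 4-coumarate-CoA ligase 2 (VIT_11s0052g01090), which activates the cinnamic acids, went from 99.4, 65.7 and 71.8 FPKM to 4.61, 6.30 and 7.11 FPKM and fell by 3.69 ± 0.27 (adjusted p = 1.55e-08). Another 4-coumarate-CoA ligase, VIT_16s0050g00390, rose by 1.10 ± 0.15 (adjusted p = 1.99e-05), from 32.8, 28.9 and 29.8 FPKM to 76.2, 47.5 and 76.4 FPKM.

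A laccase (VIT_18s0164g00100), of the copper oxidases that polymerise phenolics, fell from 43.4, 39.5 and 30.4 FPKM to 2.99, 0.0389 and 2.81 FPKM. Replicate 2 was far below the others, and the change of -5.12 ± 0.75 (adjusted p = 3.56e-05) became -3.64 ± 0.26 (adjusted p = 2.48e-08) without it. Polyphenol oxidase II (VIT_10s0116g00560), the enzyme of berry browning, stood at 268, 169.7 and 164 FPKM and then at 39.1, 35.7 and 29.6 FPKM, and fell by 2.50 ± 0.24 (adjusted p = 3.05e-07).

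Of 31 flavonoid genes and their MYB regulators, 14 fell (45.2%) and 5 rose (16.1%), beside 22.1% and 12.5% of all genes tested. The median change of the list was -0.382. The falls were led by tannin synthesis. Anthocyanidin reductase (VIT_00s0361g00040), which makes epicatechin for tannins, stood at 152, 115 and 126 FPKM at EL31 and at 9.18, 10.9 and 10.5 FPKM at EL33. The groups were far apart and the gene fell by 3.66 ± 0.23 (adjusted p = 2.78e-09). MybPA2 (VIT_11s0016g01320), a MYB factor known to activate tannin genes in grape, stood at 37.9, 46.1 and 41.05 FPKM and then at 3.07, 1.56 and 4.09 FPKM, and fell by 3.89 ± 0.29 (adjusted p = 1.65e-08). MybPA1 (VIT_15s0046g00170), its relative, which was chosen after its values were seen, fell by 1.63 ± 0.33 (adjusted p = 0.000747), from 65.8 to 89.6 FPKM to 21.6 to 29.4 FPKM.

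Flavonol and anthocyanin genes took other courses. Flavonol synthase (VIT_18s0001g03470), which makes the ultraviolet-screening flavonols, was at 18.005, 19.7 and 20.9 FPKM at EL31 and at 25.3, 27.4 and 26.7 FPKM at EL33. All EL33 values were above the EL31 values, but the change of 0.44 ± 0.51 (adjusted p = 0.553) was not called, and was called only in the fit on the exposed samples alone. No control sample at these stages exceeded 4.57 FPKM. Leucoanthocyanidin dioxygenase (LDOX, VIT_03s0017g00830), shared by the tannin and anthocyanin branches, rose by 0.87 ± 0.15 (adjusted p = 0.00015), from 10.6, 9.42 and 10.3 FPKM to 20.6, 14.4 and 21.4 FPKM. MybA3 (VIT_02s0033g00450), of the colour-locus MYB family, was at 0.205, 1.61 and 3.83 FPKM and then at 54.9, 1.15 and 57.7 FPKM. Replicate 2 stayed within the EL31 range while the others were far above it. With all samples the change was 3.64 ± 1.09 (adjusted p = 0.0145), and without replicate 2 it was 5.47 ± 0.73 (adjusted p = 2.11e-05), but the call was lost when any of 3 other exposed samples was left out (adjusted p up to 0.0916). MybA1 (VIT_02s0033g00410), which turns on the last step of anthocyanin synthesis in coloured grapes and was chosen after its values were seen, was listed at 0 in replicate 2 and at 3.60 and 5.77 FPKM in replicates 1 and 3. Its change of 2.14 ± 1.10 (adjusted p = 0.149) was not called with all samples and became 3.99 ± 0.74 (adjusted p = 0.000502) without replicate 2. Without replicate 2, 8 genes of the flavonoid list rose and 13 fell.

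**Figure D2:**
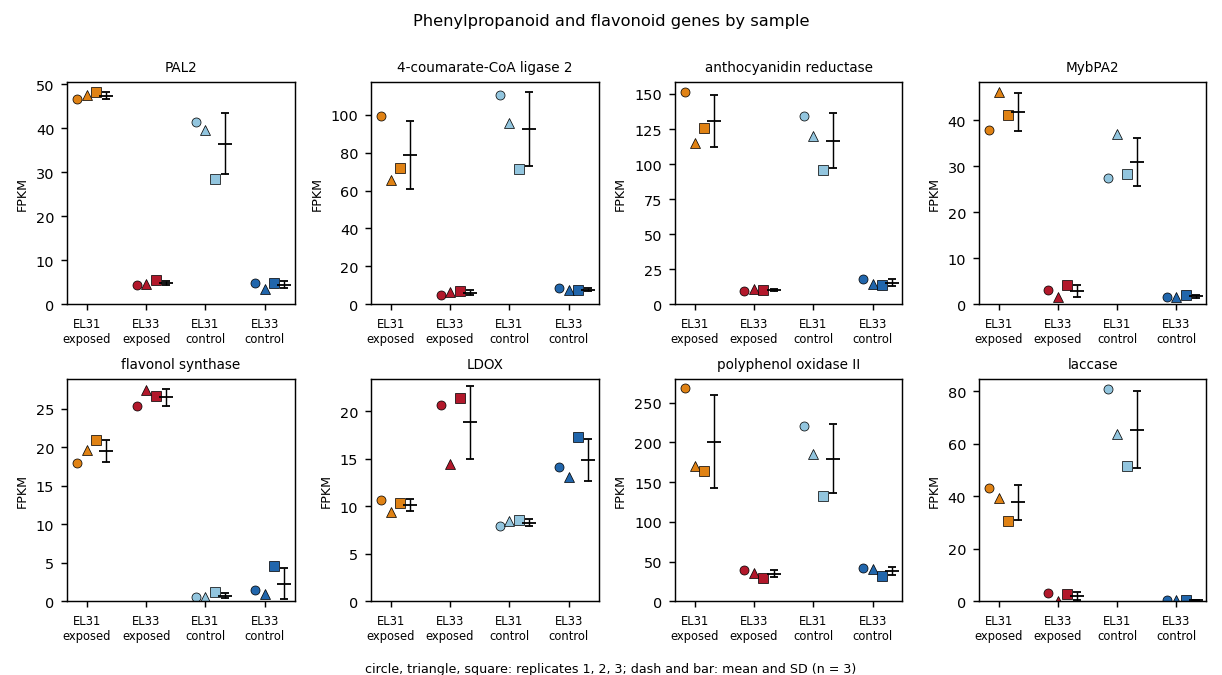
Expression of 8 phenylpropanoid and flavonoid genes in exposed and control berries at EL31 and EL33. The y axis of each panel is FPKM from 0. Symbols are replicates 1, 2 and 3, and the dash and bar are the mean and SD (n = 3). PAL2, 4-coumarate-CoA ligase 2, anthocyanidin reductase, MybPA2, polyphenol oxidase II and the laccase fell in both treatments, and flavonol synthase was high only in the exposed samples of these stages.

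Cell wall genes rose more often than they fell. Of 50 tested, 17 rose and 7 fell, against background shares of 12.5% and 22.1%. Most of these genes, 44 of the 60 listed, came from the biomarker table. Xyloglucan endotransglucosylase/hydrolase 32 (XTH32, VIT_06s0061g00550), which cuts and rejoins the hemicellulose tethers of the wall, stood at 8.78, 9.64 and 19.1 FPKM at EL31 and at 1691, 141 and 1515 FPKM at EL33. All EL33 samples lay above all EL31 samples, but replicate 2 stood far below replicates 1 and 3. The change was 5.91 ± 0.67 (adjusted p = 2.15e-06) with all samples and 7.08 ± 0.41 (adjusted p = 2.25e-09) without replicate 2. Polygalacturonase PG1 (VIT_08s0007g08330), which cleaves pectin, followed the same pattern, with 0.423, 0.570 and 0.842 FPKM at EL31 and 126, 12.2 and 173 FPKM at EL33. It rose by 6.55 ± 0.68 (adjusted p = 8.38e-07) with all samples and by 7.74 ± 0.41 (adjusted p = 1.05e-09) without replicate 2.

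The expansins, which loosen the wall without cutting it, repeated this. EXPA8 (VIT_13s0067g02930) stood at 23.02, 27.95 and 33.04 FPKM at EL31 and at 1036, 296 and 917 FPKM at EL33, and rose by 4.56 ± 0.37 (adjusted p = 4.07e-08). EXPA15 (VIT_01s0026g02620) was at 14.5, 25.9 and 27.9 FPKM and then at 183, 46.6 and 212 FPKM, and rose by 2.47 ± 0.40 (adjusted p = 9.77e-05), or by 3.16 ± 0.25 (adjusted p = 7.21e-08) without replicate 2. Both were chosen after their values were seen. Beta-expansin EXPB4 (VIT_15s0021g02700) was at 10.2, 5.69 and 6.01 FPKM and then at 262, 7.65 and 260.1 FPKM, so that replicate 2 remained inside the EL31 range. EXPB4 rose by 3.50 ± 0.87 (adjusted p = 0.00433) with all samples, lost the call in the fit on the exposed samples alone, and changed by 5.19 ± 0.35 (adjusted p = 1.32e-08) without replicate 2.

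A pectate lyase (VIT_17s0000g09810), a pectin-degrading enzyme, was not called with all samples. Its values were 28.1, 49.8 and 46.4 FPKM at EL31 and 333, 12.99 and 344 FPKM at EL33, with replicate 2 below every EL31 sample and the others far above. The change of 1.51 ± 0.85 (adjusted p = 0.19) became 3.07 ± 0.45 (adjusted p = 4.9e-05) without that sample. The pectate lyase VIT_05s0051g00590, chosen after its values were seen, rose by 3.05 ± 0.46 (adjusted p = 4.83e-05), from 23.5, 31.7 and 29.9 FPKM to 357, 93.04 and 381 FPKM, or by 3.71 ± 0.38 (adjusted p = 1.24e-06) without replicate 2. A further pectate lyase, VIT_01s0137g00240, also chosen after its values were seen, was called neither with all samples nor without replicate 2. Its change was -0.21 ± 0.52 (adjusted p = 0.79) and 0.64 ± 0.36 (adjusted p = 0.202) respectively. A pectin methylesterase inhibitor (VIT_00s0323g00070) went from 0, 0.444 and 0.276 FPKM to 38.2, 1.78 and 45.3 FPKM and rose by 5.76 ± 0.90 (adjusted p = 7.45e-05), or by 7.25 ± 0.63 (adjusted p = 2.19e-07) without replicate 2.

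The pattern was not shared by every wall gene. The cellulose synthase-like genes CSLG2 VIT_05s0049g00050 and VIT_05s0049g00040 were close to 0 at EL31 in all samples and rose in every EL33 sample. The first stood at 21.9, 9.48 and 15.3 FPKM at EL33 and rose by 4.82 ± 0.25 (adjusted p = 2.23e-10), and the second at 17.8, 12.1 and 17.3 FPKM and rose by 5.61 ± 0.53 (adjusted p = 2.96e-07). These neighbouring copies could share fragments. Among the falls, alpha-expansin 10 VIT_06s0004g07970 went from 6.71, 9.12 and 5.99 FPKM to 0.174, 0.108 and 0.277 FPKM and fell by 4.71 ± 0.34 (adjusted p = 1.24e-08), whereas a second gene with the same annotation, VIT_06s0004g00070, chosen after its values were seen, rose by 3.16 ± 0.42 (adjusted p = 1.43e-05). Cellulose synthase CESA4 (VIT_07s0005g04110), of secondary walls in Arabidopsis, fell by 3.45 ± 0.93 (adjusted p = 0.00725), although its EL31 values spread from 3.26 to 17.6 FPKM.

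Hormone gene lists held both rises and falls, to be read beside the 12.5% rises and 22.1% falls over all genes tested. Of 12 tested genes of abscisic acid and jasmonate, 3 rose (25.0%) and 2 fell (16.7%). The abscisic acid gene among them was a 9-cis-epoxycarotenoid dioxygenase (NCED, VIT_02s0087g00930), the rate-limiting enzyme of abscisic acid synthesis, at 0.257, 0.298 and 0.312 FPKM at EL31 and 18.7, 3.81 and 13.1 FPKM at EL33. It rose in every sample, least in replicate 2, and rose by 4.67 ± 0.39 (adjusted p = 6.27e-08), or by 5.34 ± 0.25 (adjusted p = 2.67e-10) without that sample. A methyl jasmonate esterase (VIT_00s0253g00150), which releases jasmonic acid, rose by 2.09 ± 0.41 (adjusted p = 0.00059), and the repressor JAZ3 (Jasmonate ZIM domain-containing protein 3, VIT_17s0000g02230) fell by 0.86 ± 0.16 (adjusted p = 0.000291). Jasmonate O-methyltransferase (VIT_18s0001g12880), which makes methyl jasmonate, fell by 1.15 ± 0.27 (adjusted p = 0.00277), a call lost under quantile normalization.

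Of 31 auxin genes, 4 rose (12.9%) and 8 fell (25.8%), near the shares over all genes tested (12.5% and 22.1%). Their median change of -0.269 turned to 0.136 under quantile normalization. The auxin influx carrier annotated as auxin transporter protein 4 (VIT_18s0001g03540) fell by 2.06 ± 0.29 (adjusted p = 2.38e-05), and auxin response factor 18 (VIT_15s0046g00290) fell by 1.80 ± 0.36 (adjusted p = 0.000757). Small auxin-up genes were among the rises. SAUR9 (VIT_04s0023g03230) was at 8.80, 1.96 and 5.18 FPKM and then at 92.8, 11.8 and 66.5 FPKM, and rose by 3.19 ± 0.63 (adjusted p = 0.000654), or by 4.10 ± 0.52 (adjusted p = 1.26e-05) without replicate 2. SAUR29 (VIT_16s0098g01150) was at 4.86, 9.50 and 5.95 FPKM and then at 38.5, 9.36 and 54.2 FPKM, with replicate 2 again inside the EL31 range, and rose by 2.04 ± 0.49 (adjusted p = 0.00348), or by 2.79 ± 0.38 (adjusted p = 2.47e-05) without that sample.

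Gibberellin genes gave 3 rises and 5 falls of 15, and 6 rises and 5 falls without replicate 2. Gibberellin 20-oxidase 2 (VIT_04s0044g02010), a late step of gibberellin synthesis, fell by 1.76 ± 0.30 (adjusted p = 0.000164), and gibberellin 2-beta-dioxygenase 7 (VIT_19s0177g00030), of the enzymes that inactivate the hormone, rose by 2.45 ± 0.43 (adjusted p = 0.000213). Another gene with this annotation, VIT_10s0116g00410, which the paper names, changed by 0.52 ± 0.44 (adjusted p = 0.398) and was not called. In control berries VIT_10s0116g00410 rose by 1.64 ± 0.44 (adjusted p = 0.00719). The difference between these changes, -1.12 ± 0.62, was not called. The receptor annotated GID1L2 (VIT_07s0104g00930) rose by 1.86 ± 0.17 (adjusted p = 2.06e-07), from 11.1, 12.1 and 14.2 FPKM to 49.002, 33.5 and 56.7 FPKM. GASA4 (VIT_14s0108g00740), a gibberellin-regulated peptide, was at 73.9, 42.1 and 48.4 FPKM and then at 131, 6.72 and 84.5 FPKM. Its change of -0.33 ± 0.68 (adjusted p = 0.749) turned to 0.98 ± 0.28 (adjusted p = 0.0118) without replicate 2.

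Of 29 ethylene genes, 7 rose (24.1%) and 4 fell (13.8%), with a median change of -0.081 that turned to 0.169 under quantile normalization. The response factors ERF003 (VIT_04s0008g06000) and ERF025 (VIT_16s0100g00400) rose by 3.29 ± 0.31 (adjusted p = 2.76e-07) and 3.36 ± 0.47 (adjusted p = 2.5e-05). SHINE 3 (VIT_04s0008g05440), a factor of the same family known from Arabidopsis to control cuticle synthesis, went from 48.9, 61.4 and 65.6 FPKM to 4.86, 5.14 and 3.47 FPKM and fell by 3.69 ± 0.52 (adjusted p = 2.4e-05). 1-aminocyclopropane-1-carboxylate oxidase 2 (VIT_11s0016g02380), the last enzyme of ethylene synthesis, was at 0.579, 0.579 and 1.11 FPKM and then at 15.1, 0.0830 and 8.77 FPKM, and its change of 1.82 ± 1.01 (adjusted p = 0.183) was not called with all samples and became 3.82 ± 0.36 (adjusted p = 5.05e-07) without replicate 2.

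Pathogenesis-related proteins, which ripening grapes also store in quantity, rose in 8 of 25 genes (32.0%) and fell in 2 (8.0%). The shares over all genes tested were 12.5% and 22.1%. Without replicate 2 the pathogenesis-related list had 12 rises and 1 fall. Thaumatin VVTL1 (VIT_02s0025g04330), a haze-forming protein of white juice and wine, stood at 35.5, 90.9 and 94.9 FPKM at EL31 and at 3096, 80.7 and 2301 FPKM at EL33. Replicate 2 lay inside the EL31 range and the others far above it. The change was 3.62 ± 0.93 (adjusted p = 0.00517) with all samples and 5.31 ± 0.51 (adjusted p = 6.58e-07) without replicate 2. The adjacent thaumatin VIT_02s0025g04300 was at 11.7, 68.7 and 36.6 FPKM and then at 1079.9, 28.5 and 641 FPKM. Its change of 3.13 ± 1.01 (adjusted p = 0.023) became 4.75 ± 0.74 (adjusted p = 9.77e-05) without replicate 2 and lost the call when any of 3 other exposed samples was left out (adjusted p up to 0.133). A class IV chitinase (VIT_05s0094g00340), which attacks fungal walls, was at 25.5, 107 and 129 FPKM and then at 2773, 27.8 and 1442 FPKM. Its change of 2.77 ± 1.15 (adjusted p = 0.0725) was called only without replicate 2, as 4.82 ± 0.67 (adjusted p = 2.92e-05). Thaumatin genes are close copies, and the share of fragments among them is uncertain.

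**Figure D3:**
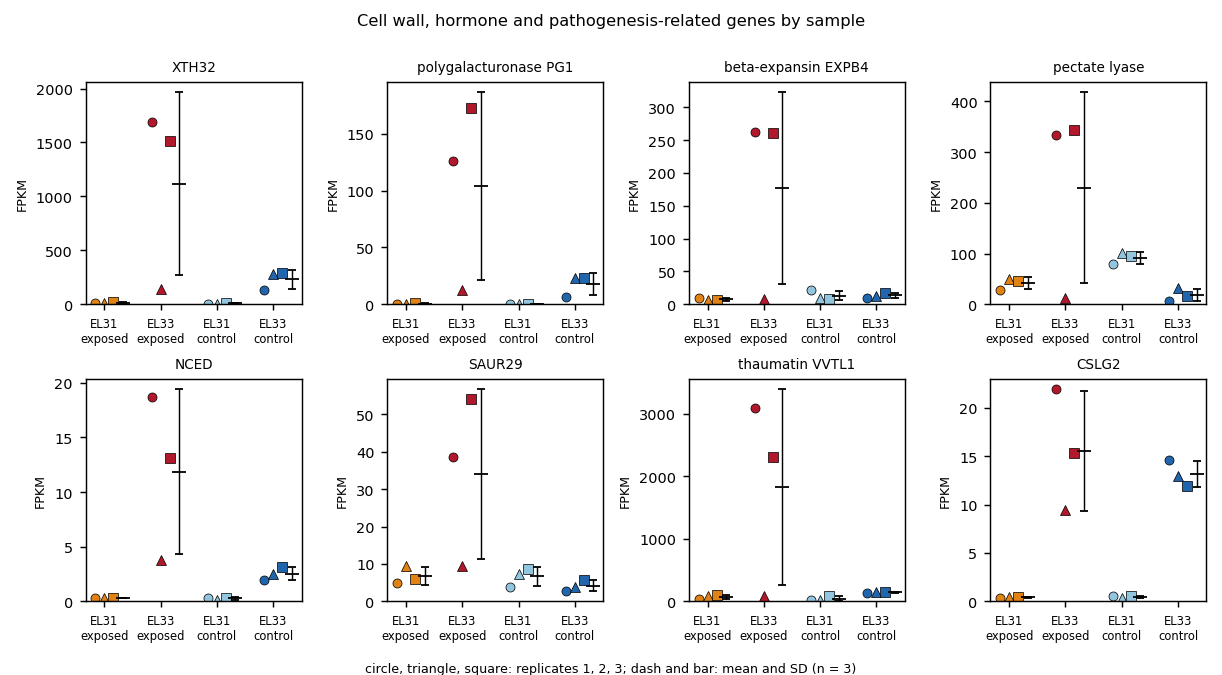
Expression of 8 cell wall, hormone and pathogenesis-related genes in exposed and control berries at EL31 and EL33. The y axis of each panel is FPKM from 0. Symbols are replicates 1, 2 and 3, and the dash and bar are the mean and SD (n = 3). At EL33 exposed replicates 1 and 3 stood far above replicate 2 for XTH32, PG1, EXPB4, the pectate lyase and VVTL1, whereas CSLG2 rose in all samples of both treatments.

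Sugar and starch genes rose in 10 (29.4%) and fell in 6 (17.6%) of 34, beside 12.5% and 22.1% of all genes tested. Their median change of -0.045 turned to 0.257 under quantile normalization. Sucrose-phosphate synthase (VIT_05s0029g01140), which makes sucrose phosphate, stood at 2.24, 2.20 and 2.26 FPKM at EL31 and at 12.9, 12.6 and 16.6 FPKM at EL33, and rose by 2.58 ± 0.14 (adjusted p = 5.57e-10). A galactinol synthase (VIT_01s0127g00470), the entry to raffinose sugars, was at 13.6, 10.4 and 12.03 FPKM and then at 148, 32.4 and 77.6 FPKM, and rose by 2.58 ± 0.35 (adjusted p = 1.57e-05). Another galactinol synthase (VIT_07s0005g01970) was already at 131, 101 and 104 FPKM at EL31, against 1.46 to 3.04 FPKM in control berries, and at 223, 254 and 161 FPKM at EL33, a change of 0.91 ± 0.42 (adjusted p = 0.106). In control berries this gene rose by 3.69 ± 0.42 (adjusted p = 2.4e-06). The difference between the changes, -2.78 ± 0.59 (adjusted p = 0.354), did not pass the test with all samples. Without EL33 exposed replicate 2 it was -2.92 ± 0.64 (adjusted p = 0.034) and passed. Trehalose-6-phosphate phosphatase (VIT_00s0304g00080) fell by 2.19 ± 0.27 (adjusted p = 6.06e-06). The vacuolar invertases GIN1 (VIT_16s0022g00670) and GIN2 (VIT_02s0154g00090), which split stored sucrose and were chosen after their values were seen, changed by -0.61 ± 0.25 (adjusted p = 0.0649) and -0.19 ± 0.11 (adjusted p = 0.212), not called.

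Organic acid genes gave 3 rises (15.8%) and 3 falls (15.8%) of 19, beside 12.5% and 22.1% of all genes tested. They gave 5 rises and 3 falls without EL33 exposed replicate 2, and 7 rises and 1 fall under quantile normalization. Phosphoenolpyruvate carboxykinase (VIT_00s1995g00010), which turns oxaloacetate, the oxidised form of malate, into phosphoenolpyruvate, stood at 601, 497 and 531 FPKM at EL31 and at 1172, 1126 and 1196 FPKM at EL33. The samples of each stage lay close together and the gene rose by 1.11 ± 0.09 (adjusted p = 3.45e-08). Phosphoenolpyruvate carboxylase (VIT_12s0028g02180), which works in the opposite direction and feeds malate synthesis, fell by 0.52 ± 0.16 (adjusted p = 0.0189), a call lost when any of 2 exposed samples was left out (adjusted p up to 0.07) and under quantile normalization. The glyoxysomal malate dehydrogenase VIT_03s0088g01190 fell by 0.79 ± 0.18 (adjusted p = 0.00202).

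Of 6 aquaporins, the membrane channels for water, 2 rose (33.3%) and 2 fell (33.3%), beside 12.5% and 22.1% of all genes tested. The tonoplast channel annotated GAMMA-TIP3/TIP1;3 (VIT_06s0061g00730) was among the abundant transcripts of the young berry at 1096, 761 and 805 FPKM. It stood at 147, 144 and 108 FPKM at EL33 and fell by 2.73 ± 0.40 (adjusted p = 3.76e-05). TIP4;1 (VIT_04s0008g03550) fell by 3.41 ± 0.41 (adjusted p = 4.31e-06). TIP1;3 (VIT_13s0019g00330) was at 209, 227 and 229 FPKM and then at 580.0, 196 and 717 FPKM, and rose by 0.97 ± 0.32 (adjusted p = 0.0268), a call lost when any of 5 exposed samples was left out (adjusted p up to 0.168). In control berries it changed by -1.05 ± 0.32 (adjusted p = 0.0176), which made it the 1 gene called in both treatments with opposite signs. The difference between the treatments, 2.01 ± 0.46 (adjusted p = 0.354), did not pass the test with all samples and was 2.59 ± 0.26 (adjusted p = 3.1e-05) without EL33 exposed replicate 2.

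Heat shock proteins and chaperones, which keep other proteins folded and are induced by heat, rose in 16 and fell in 2 of 76, 21.1% and 2.63%. Over all genes tested the shares were 12.5% and 22.1%. Rises were more common among the 3678 annotated genes tested, of which 681 rose and 711 fell. The median log2 level of the list was 5.53, 5.70 and 5.85 at EL31 and 6.70, 6.70 and 6.15 at EL33 in exposed samples. In control samples it was 4.47, 4.40 and 4.61 at EL31 and 5.23, 5.05 and 5.52 at EL33, and 67 of the 76 genes had a higher mean in exposed than in control berries at EL31, against 8343 of all 18458 genes tested. The control rise was called for 45 genes (59.2%, against 12.4% of all genes tested), with a median change of 1.012 against 0.312 in exposed berries. With all samples, no gene of the list was called by limma for the difference between the changes. Before adjustment 21 of the 76 had a p of at most 0.05 in that test, against 966 of all 18458 genes tested. Without EL33 exposed replicate 2, 1 gene of the list was called for that difference, a class IV heat shock protein of 22.0 kDa (VIT_18s0089g01270) chosen after its values were seen, at -3.01 ± 0.57 (adjusted p = 0.012). The count of rises in exposed berries was 10 without EL31 exposed replicate 2 or without EL33 exposed replicate 1.

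DnaJ homolog, subfamily A, member 5 (VIT_14s0060g01490), a co-chaperone, stood at 29.4, 34.6 and 42.6 FPKM at EL31 and at 330.2, 397 and 273 FPKM at EL33, and rose by 3.22 ± 0.22 (adjusted p = 6.05e-09). The small heat shock protein HSP26.5-P (VIT_09s0002g06790) rose by 1.62 ± 0.26 (adjusted p = 7.62e-05). Heat shock transcription factor A6B (VIT_04s0008g01110) was at 358, 360.2 and 298 FPKM and then at 543, 531 and 371 FPKM, and its change of 0.49 ± 0.41 (adjusted p = 0.392) was not called. MBF1C (VIT_11s0016g04080), a coactivator of the heat response in Arabidopsis, was at 1094, 941 and 1056 FPKM and then at 1664, 1521 and 1171 FPKM, a change of 0.48 ± 0.20 (adjusted p = 0.0661). Both were at least 3-fold lower in every control sample at EL31.

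Redox and glutathione genes gave 8 rises (16.7%) and 10 falls (20.8%) of 48, near the 12.5% and 22.1% over all genes tested. Their median change of -0.187 turned to 0.001 under quantile normalization. The glutathione S-transferases GSTU25 (VIT_19s0015g02730) and GSTU20 (VIT_19s0015g02880), which conjugate glutathione to reactive compounds, rose by 2.23 ± 0.19 (adjusted p = 8.14e-08) and 1.92 ± 0.21 (adjusted p = 1.67e-06). These genes sit in a family of close copies and their fragments may be shared. Chloroplast ascorbate peroxidase (VIT_18s0001g06370), which removes hydrogen peroxide beside the photosystems, fell by 0.98 ± 0.17 (adjusted p = 0.000214), from 169 to 186 FPKM to 79.1 to 107 FPKM. Of 52 disease resistance receptors, 18 fell (34.6%) and 3 rose (5.77%), beside 22.1% and 12.5% of all genes tested. The median change of these receptors was -0.519. Under quantile normalization their median came to 0.002, and 8 fell and 8 rose. The falls numbered 10 to 11 when EL31 exposed replicate 2, EL31 exposed replicate 3 or EL33 exposed replicate 3 was left out. The receptor VIT_16s0050g02100 was at 14.5, 14.6 and 13.997 FPKM and then at 1.62, 3.57 and 1.73 FPKM, and fell by 2.68 ± 0.34 (adjusted p = 6.99e-06).

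The cuticle, the waxy outer layer of the skin, had 7 falls (41.2%) and 2 rises (11.8%) among 17 genes. The shares over all genes tested were 22.1% and 12.5%. Cuticle genes had a median change of -0.738. A GDSL lipase (VIT_09s0002g03140), of the family that includes cutin-polymerising enzymes, stood at 252, 293 and 302 FPKM at EL31 and at 2.64, 3.48 and 5.02 FPKM at EL33, and fell by 6.25 ± 0.31 (adjusted p = 1.32e-10). Genes annotated as wax synthase went both ways. The copy VIT_15s0046g00710 fell by 5.05 ± 0.43 (adjusted p = 7.51e-08), from 9.73, 9.26 and 10.1 FPKM to 0.136, 0.132 and 0.373 FPKM. The copies VIT_03s0063g00120 and VIT_15s0046g00490 rose by 2.58 ± 0.12 (adjusted p = 9.81e-11) and 1.81 ± 0.18 (adjusted p = 4.74e-07). The former stood at 68.05, 63.8 and 66.3 FPKM at EL33, a narrow spread that included replicate 2. Cell cycle and microtubule genes gave 7 falls (18.4%) and 2 rises (5.26%) of 38, beside 22.1% and 12.5% of all genes tested. Of the 3678 annotated genes tested, 711 fell and 681 rose. Under quantile normalization 2 cell cycle and microtubule genes fell and 7 rose, and their median of -0.174 turned to 0.031. The falls numbered 3 or 4 when EL31 exposed replicate 2 or 3, or EL33 exposed replicate 1 or 3, was left out. A kinesin motor protein (VIT_04s0023g03060) fell by 0.88 ± 0.15 (adjusted p = 0.000155).

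Seed and embryo markers were followed because fragments of seed may remain after the seeds are removed. The 24 listed genes summed to 1697, 1497 and 1540 FPKM at EL31 and to 2499, 1378 and 2050 FPKM at EL33 in exposed samples, and to between 1191 and 2475 FPKM in the control samples of these stages. The 6 oleosins, which coat the oil bodies of seeds, summed to 31.7, 3.24 and 13.2 FPKM at EL31 and to 71.1, 3.65 and 44.8 FPKM at EL33. Replicate 2 was thus the lowest exposed sample at both stages. In control samples these oleosins summed to 1.87 to 2.25 FPKM at EL31 and to 128, 7.78 and 7.82 FPKM at EL33, and 3 of the 6 were listed at 0 in EL33 exposed replicate 2. The 2S albumin (VIT_19s0177g00090), a storage protein of seeds, was at 63.4, 0.764 and 0 FPKM at EL33. The part of seed RNA in the differences between replicates was not tested. Of the 19 members tested, 3 rose (15.8%) and 2 fell (10.5%), beside 12.5% and 22.1% of all genes tested. Rises numbered 5 without EL33 exposed replicate 2 and 6 under quantile normalization. Late embryogenis abundant protein 5 (VIT_07s0005g00660) was the most abundant that rose, from 62.4, 108 and 73.7 FPKM to 1059, 236 and 949 FPKM, a change of 2.97 ± 0.47 (adjusted p = 8.99e-05) that was 3.66 ± 0.39 (adjusted p = 1.77e-06) without replicate 2.

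**Figure D4:**
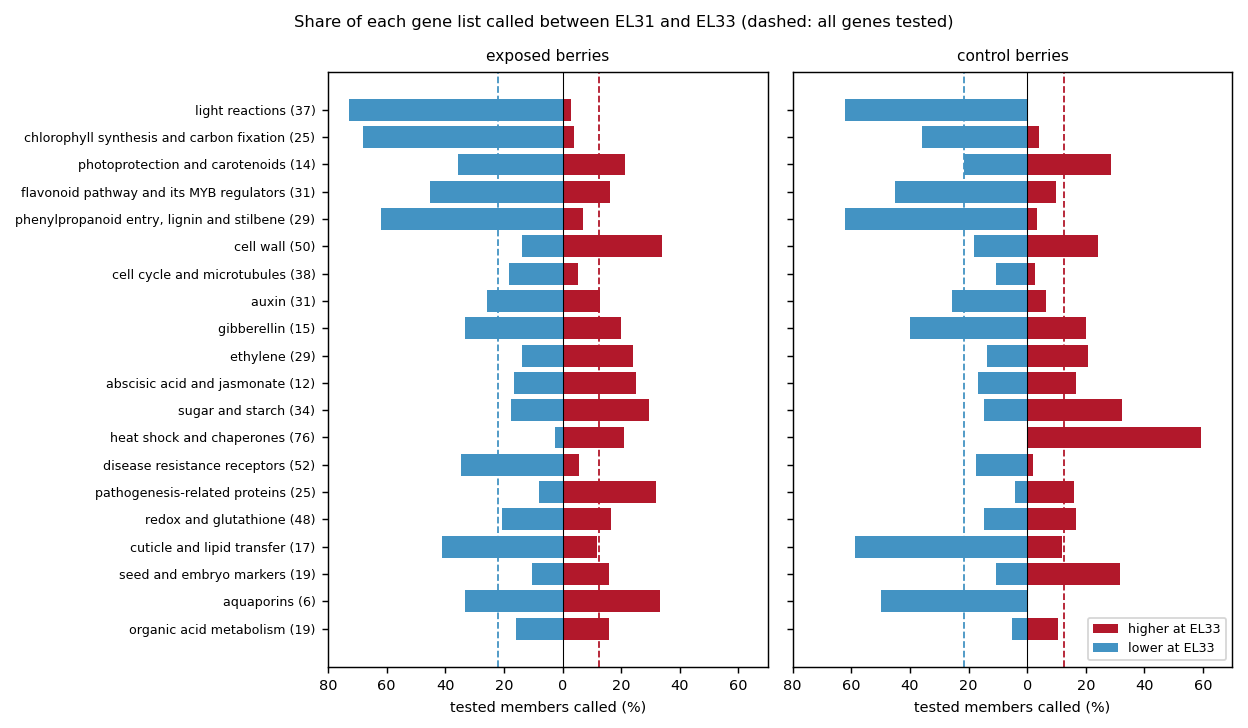
Share of each gene list called higher (right) or lower (left) at EL33 than at EL31, in exposed berries and in control berries. The x axis is the percent of tested members, and the dashed lines are the shares over all genes tested, 12.5% and 22.1% in exposed berries. The lists hold annotated genes only, and of the 3678 annotated genes tested 681 rose and 711 fell in exposed berries. Light reactions, chlorophyll synthesis and phenylpropanoid genes extended furthest to the left in exposed berries.

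The largest changes among annotated genes included many outside these groups. UDP-glycosyltransferase 85A1 (VIT_18s0001g06060) stood at 0.372, 0.240 and 1.44 FPKM at EL31 and at 147, 38.5 and 74.3 FPKM at EL33, and rose by 6.90 ± 0.49 (adjusted p = 1.02e-08). Major latex protein 22 (VIT_01s0011g05110) was at 6.44, 27.8 and 19.4 FPKM and then at 1662, 596 and 1480.1 FPKM, and rose by 6.22 ± 0.57 (adjusted p = 1.83e-07). A protein phosphatase 2C (VIT_16s0050g02680), of the family that includes repressors of abscisic acid signalling, rose by 5.43 ± 0.71 (adjusted p = 1.1e-05), or by 6.42 ± 0.61 (adjusted p = 5.34e-07) without replicate 2. IQD26 (VIT_14s0030g01880), a calmodulin-binding protein, rose by 4.68 ± 0.35 (adjusted p = 2.09e-08), and a gene annotated as translation initiation factor 2B (VIT_02s0025g03730) rose by 5.04 ± 0.76 (adjusted p = 5.1e-05), or by 6.17 ± 0.61 (adjusted p = 9.35e-07) without that sample. An ankyrin repeat protein (VIT_11s0016g02750) was listed at 0 in every EL31 exposed sample and at 15.6, 3.37 and 3.26 FPKM at EL33.

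Proline-rich protein 4 (VIT_03s0038g01830), a wall protein, had the steepest fall of the genes named here. It stood at 86.1, 75.2 and 86.02 FPKM at EL31 and at 0.386, 0.541 and 0.797 FPKM at EL33, and fell by 6.98 ± 0.38 (adjusted p = 4.46e-10). IQD10 (VIT_19s0014g01690) went from 13.9, 15.4 and 14.9 FPKM to 0.216, 0.246 and 0.212 FPKM and fell by 5.51 ± 0.52 (adjusted p = 2.9e-07). ANL2 (VIT_09s0018g02100), a homeodomain factor named for an Arabidopsis mutant without anthocyanin, fell by 5.20 ± 1.25 (adjusted p = 0.00329), a change that ranged from -5.89 to -3.97 when 1 exposed sample was left out. A bHLH factor (VIT_01s0026g00350) was at 208, 202 and 164 FPKM and then at 6.37, 14.2 and 10.9 FPKM, and fell by 4.24 ± 0.57 (adjusted p = 1.37e-05). The other named falls, an FAD-linked oxidase (VIT_11s0016g02110), an alpha-galactosidase (VIT_10s0071g01120) and an alpha/beta hydrolase (VIT_00s0646g00010), ranged from -4.59 to -4.19, and the hydrolase lost its call without EL33 exposed replicate 1 (adjusted p = 0.0951). A pentatricopeptide repeat protein (VIT_17s0000g00040) was listed at 0 in every EL33 exposed sample after 5.83, 20.6 and 10.7 FPKM at EL31.

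The same interval in control berries used other samples but the same genes, which were filtered on the exposed groups alone. There 2298 genes rose (12.4%) and 3967 fell (21.5%). Of the genes called in exposed berries, 4887 were also called in control berries, 76.6% of the exposed calls and 78.0% of the control calls, and 4886 of them had the same direction. Calls in only 1 treatment, 1494 in exposed and 1378 in control berries, do not show that the changes differed. Tested directly, the exposed change differed from the control change for 2 genes, 0.0108% of those tested, 1 of them in each direction (0.00542%). Before adjustment 966 genes had a p of at most 0.05. Neither gene is annotated, and each passed the filter only through the exposed group where it was high. Genes present only in control berries could not enter this test. With a filter on any of the 8 groups the count was also 2. VIT_00s0650g00010 was at 7.91, 8.87 and 3.35 FPKM in exposed berries at EL31 and listed at 0 in all other samples of both stages. VIT_00s0194g00180 was listed at 0 in both treatments at EL31 and at 6.50, 3.66 and 5.70 FPKM in exposed and 1.02, 0.765 and 0.621 FPKM in control berries at EL33.

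Among annotated genes, homocysteine S-methyltransferase 3 (VIT_05s0020g03860), which makes methionine, came close. It stood at 68.9, 57.7 and 64.5 FPKM at EL31 and at 433, 309.5 and 316 FPKM at EL33 in exposed berries, against 25.7, 21.9 and 24.8 FPKM and 298, 276 and 323 FPKM in control berries. Both treatments rose, and the exposed change was smaller by -1.17 ± 0.19 (adjusted p = 0.0585), short of the threshold, and by -1.09 ± 0.20 (adjusted p = 0.00786) without EL33 exposed replicate 2, which passed it. The photorespiratory aminotransferases fell in exposed berries. Serine-glyoxylate aminotransferase (VIT_06s0009g03740) went from 245, 227 and 225 FPKM to 143, 156 and 146 FPKM and fell by 0.65 ± 0.13 (adjusted p = 0.000576), whereas the control changed by 0.22 ± 0.13 (adjusted p = 0.204). Alanine-glyoxylate aminotransferase 2 homolog 3 (VIT_08s0058g00930) fell by 1.09 ± 0.19 (adjusted p = 0.000219), whereas the control changed by -0.09 ± 0.19 (adjusted p = 0.779). The differences between treatments, -0.87 ± 0.18 (adjusted p = 0.352) and -1.0 ± 0.27 (adjusted p = 0.508), did not pass the test with all samples, whereas without EL33 exposed replicate 2 they were -0.90 ± 0.19 (adjusted p = 0.0274) and -1.17 ± 0.27 (adjusted p = 0.0425) and passed. Apart from the last, these genes were picked after their values were seen.

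The number of genes that differed between the treatments rested on EL33 exposed replicate 2. Without it, 207 genes rose more (1.12%) and 11 rose less or fell more (0.0596%) in exposed than in control berries, 218 genes in all (1.18%), and before adjustment 1547 genes had a p of at most 0.05. Of the 207, 117 are ripening biomarkers and none are green biomarkers on the partial lists read here. Those lists hold 1892 and 1934 of the 18458 genes tested. In 204 of the 207, replicate 2 lay below both other EL33 exposed samples, and in 162 it did not exceed the highest EL33 control sample. Since these genes were called in a fit that left replicate 2 out, its low values in them follow in part from that choice. The counts and the genes named next are a description. The cell wall list held 12 of the 207 and the pathogenesis-related list 4. Among them were PG1, EXPA8, EXPA15, NCED, SAUR29, GASA4, ERF003, 1-aminocyclopropane-1-carboxylate oxidase 2 and VVTL1. EXPB4 then differed by 5.05 ± 0.47 (adjusted p = 2.12e-05), non-symbiotic hemoglobin class 1 (VIT_03s0063g01960) by 3.67 ± 0.23 (adjusted p = 2.1e-07) and the pectate lyase VIT_17s0000g09810 by 5.68 ± 0.60 (adjusted p = 6.45e-05). With all samples the same differences were 3.36 ± 1.23 (adjusted p = 0.75), 2.47 ± 0.84 (adjusted p = 0.708) and 4.12 ± 1.20 (adjusted p = 0.55). The hemoglobin stood at 5.84, 9.43 and 7.55 FPKM at EL31 and at 86.02, 6.77 and 78.9 FPKM at EL33, against 10.5, 8.36 and 8.44 FPKM in EL33 control samples.

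**Figure D5:**
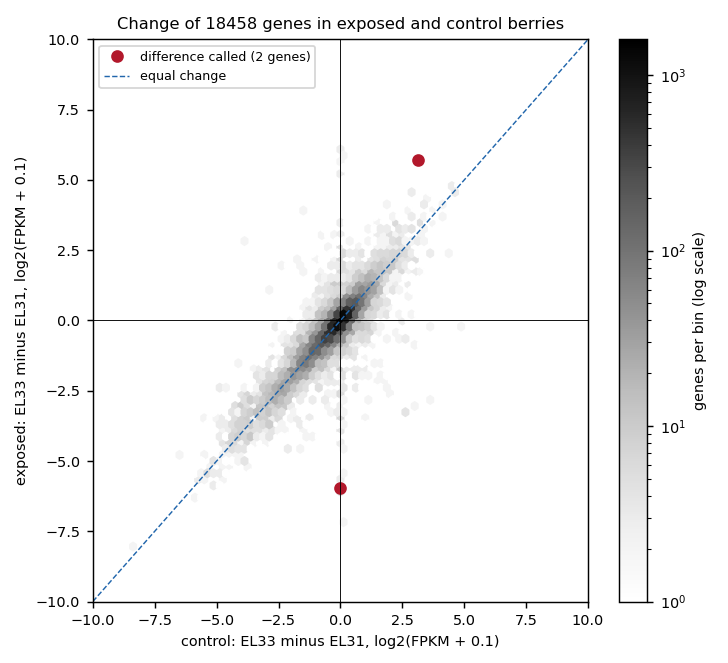
Change from EL31 to EL33 of each tested gene in control berries (x axis) and in exposed berries (y axis), both as the difference in log2(FPKM + 0.1). Shading is the number of genes per bin on a log scale, and the dashed line marks equal change. The 2 red points are the genes whose exposed and control changes differed.

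The study's own stage markers, chosen on the control samples over the whole season, were read in exposed berries. Each list was read only in part, as stated above. Of 1892 tested ripening biomarkers, 706 rose (37.3%) and 45 fell (2.38%), beside 12.5% and 22.1% of all genes tested. Without EL33 exposed replicate 2, 802 of them rose and 35 fell. Of 1934 tested green-berry biomarkers, 610 fell (31.5%) and 16 rose (0.827%), and without that sample 613 fell and 4 rose. The 16 rises numbered 3 to 8 when EL31 exposed replicate 2 or 3, or EL33 exposed replicate 1, was left out. In control berries 447 ripening biomarkers rose and 127 fell, and 338 green biomarkers fell and 45 rose. The lists were chosen on these control samples, so the control counts are not independent of them.

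The exposed EL33 samples were also set against the neighbouring stages, EL31 and EL34. EL34 is the name the labels give to the third harvest, which the paper places at véraison and calls EL35. Across the tested genes, the correlation of log2 values with the 3 EL34 exposed samples was 0.863 to 0.874 for replicate 1, 0.831 to 0.859 for replicate 2 and 0.877 to 0.885 for replicate 3. With the EL31 exposed samples it was 0.810 to 0.828, 0.835 to 0.852 and 0.823 to 0.844. These are correlations across genes, which are not independent replicates. Replicate 2 had the lowest correlations with EL34, and its correlations with EL31 were above those of replicate 1 and overlapped those of replicate 3. Within the group the 3 samples correlated at 0.893 to 0.913, against 0.931 to 0.938 for the EL33 control samples.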

How the data were processed

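The series holds 23 samples in 8 groups (exposed or control berries at 4 stages), each with a group given by its label. The authors sequenced poly(A) RNA on the Illumina HiSeq, handled the reads with CASAVA 1.8.2 (submitters' processing notes), aligned them with TopHat to the PN40024 reference genome and deposited FPKM values from Cufflinks. Gene identifiers of the deposited table begin with Vv and are written here with the VIT_ prefix of the paper. No counts were used, so absolute depth is unknown and the spread between replicates gives the precision.

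After adding 0.1, FPKM values were put on a log2 scale and fitted with limma (version 3.58.1, R version 4.3.3), with a trended empirical Bayes prior, in 1 fit of all 23 samples with a mean per group and 15 residual degrees of freedom. Contrasts were exposed EL33 minus EL31, the same in control berries, and their difference. A gene was tested where either exposed group averaged 1 FPKM or more, with Benjamini-Hochberg adjustment over 18458 genes and a threshold of 0.05. The fit was tested on simulated data. Summaries were made in Python 3.11.15.

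Named genes were the 12 largest called rises and falls among annotated genes with at least 5 FPKM in the higher group and no overlap between groups, the 2 largest called rises and falls of each list, genes that the paper's text names, and defining members of a list. Genes outside this rule are marked in the text. Annotations and 20 gene lists came from keyword searches of the study's supplementary tables. Members and lists were chosen with earlier results of these data known. Alternatives were pseudocounts of 0.5 and 1, other filters, median-of-ratios and quantile scaling, fewer samples in the fit, a replicate block, no trend, a threshold of 0.01 and leaving out each sample in turn.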

Additional observations from a re-analysis of the deposited data

Results flagged for a closer look

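For 2 genes the change from EL31 to EL33 differed between exposed and control berries in the test of that difference by limma. VIT_00s0650g00010 differed by -5.97 (adjusted p = 0.000203). It stood at 7.91, 8.87 and 3.35 FPKM in the EL31 exposed samples and was listed at 0 in the other 9 samples of these stages and in the EL34 exposed samples. VIT_00s0194g00180 differed by 2.56 (adjusted p = 0.0319). It was listed at 0 in all EL31 samples and stood at 6.50, 3.66 and 5.70 FPKM in EL33 exposed, 1.02, 0.765 and 0.621 FPKM in EL33 control and 9.16, 6.53 and 14.1 FPKM in EL34 exposed samples. Both differences are taken against groups listed at 0, so their size depends on the value of 0.1 added before the logarithm and is no bound. Each gene entered the test only through the exposed group where it was high, since the filter used the exposed groups alone. Neither gene carries an annotation here.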

How the results depend on the processing

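With groups of 3, the 6381 genes called in exposed berries numbered 4515 to 7580 over all alternatives and 5393 to 6019 when 1 exposed sample was left out, and the 6265 called in control berries numbered 4417 to 7846. The replicate block, with the replicate number within each treatment as a block, called 7344 genes in exposed and 7251 in control berries. The pairing it assumes was not borne out: deviations of samples with the same number correlated between EL31 and EL33 at -0.01 to 0.05. The split of calls moved most with quantile normalization, where 58.5% of the exposed calls were rises against 36.2%, and with median-of-ratios scaling 42.9% were rises, with 2853 rises and 3797 falls. In the fit on exposed samples alone 1519 genes rose, and 1498 did at a threshold of 0.01.

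The 2 genes whose exposed and control changes differed became 1 at a pseudocount of 0.5, 5 at a pseudocount of 1, 11 with no filter, 0 among genes with at least 5 FPKM, 8 after quantile normalization, 4 in the fit on the samples of EL31 and EL33 only, which are also the samples of this contrast, 6 with the replicate block and 1 at a threshold of 0.01. Leaving out 1 sample gave 1 to 218. The highest count came without EL33 exposed replicate 2, and the cause was not tested.

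Of the named genes, 138 were called, and 2291 of their 2473 values under alternatives kept the direction and the call. The remaining 182, from 38 genes, kept the direction only. Without EL33 exposed replicate 2, 10 named genes lost the call and 12 gained it. GASA4 (VIT_14s0108g00740), not called with all samples, turned from -0.33 to 0.98 without that sample, and ranged from -1.15 to 0.98 when 1 exposed sample was left out. Of 792 counts of list members under alternatives, 673 were within 1.5 times the value given in the text.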
